A study of Mus musculus with 24 samples.

Results

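The regions described here are 295 stretches of the mouse genome at which KLS cells gave more ATAC-seq reads in Daxx-KO than in Daxx-WT libraries, and fewer reads in Daxx/Pu.1 double-knockout (DKO) than in Daxx-WT libraries. ATAC-seq counts the cuts of a transposase that enters open chromatin, so a site with more reads is taken to be more accessible. The members were drawn from 2 tables of sites that the authors made with a sliding-window comparison. The Daxx-KO table held 17311 sites, of which 3308 were higher and 14003 lower in Daxx-KO than in Daxx-WT KLS cells. The DKO table held 50928 sites, of which 36740 were higher and 14188 lower in DKO than in Daxx-WT KLS cells. A Daxx-KO higher site was a member when it shared at least 1 bp with a DKO lower site, which 8.92% of the 3308 did. The 295 members met 294 of the DKO lower sites. The members are set beside all Daxx-KO higher sites, the 537 of them that met a DKO higher and no DKO lower site, and the 2476 that met no DKO site. Because the KLS values chose the members, differences among KLS libraries are given as a description, with no test.

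Daxx is a chaperone that places the histone variant H3.3 at silent chromatin with its partner Atrx. PU.1, encoded by Spi1 and written Pu.1 in the sample names, is a transcription factor of the ETS family that binds a purine-rich sequence, can open chromatin and is needed for the formation of myeloid and B-lymphoid cells. KLS cells are bone marrow cells that carry c-Kit and Sca-1 and no lineage markers. They hold the haematopoietic stem cells and the earliest multipotent progenitors, upstream of CMPs (common myeloid progenitors) and of GMPs, which make granulocytes and monocytes. Accessible sites far from genes in such cells are often enhancers that later lineages also use.

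All libraries came from bone marrow of C57BL/6 mice that carried 1 copy of a Cre transgene, controls included. The KLS groups, sorted 3 weeks post induction (w.p.i.), were Daxx +/+ Cre +/- (Daxx-WT, 2 libraries), Daxx F/F Cre +/- (Daxx-KO, 3 libraries) and animals both Daxx F/F and Pu.1 F/F with Cre +/- (DKO, 2 libraries). According to the methods, the double-floxed mice were bred on Mx1Cre, an interferon-inducible driver switched on with pI:pC, whereas other Daxx-KO mice carried the tamoxifen-inducible RosaCreERT2. For the Daxx-KO and Daxx-WT KLS libraries the driver is not given in the ATAC-seq methods, while KLS cells sorted for RNA at the same time came from Mx1Cre mice. The labels give no ages, and the methods give only an age range at treatment for the study as a whole. Long-term haematopoietic stem cells (LT-HSCs) were Daxx-WT (2 libraries) and Daxx-KO (3 libraries) at 3 days post induction (d.p.i.), a time the methods give for tamoxifen-treated mice, and a further set of LT-HSCs, CMPs and GMPs, to which the labels give no time and which the methods place on RosaCreERT2, had 2 Daxx-WT and 2 Daxx-KO libraries each. Loss of Pu.1 alone was not analysed here, so in the DKO values the loss of Pu.1 and the loss of both genes cannot be told apart. The methods call the genomic replicates biological, and the header of the LT-HSC 3 d.p.i. table names its libraries by mouse number, but no source ties a KLS library to a mouse.

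Over Daxx (chr17:33909601-33912700, mm10) the reads scaled by the authors (scaled reads) came to 54.6, 90.1 and 61.2 in Daxx-KO KLS libraries, against 255 and 294.6 for Daxx-WT. At chr2:91114801-91115800 in Spi1 DKO libraries had 2.12 and 4.68 and Daxx-WT libraries 31.1 and 58.1, and the Daxx-KO table listed no site there. The 4 other DKO sites listed in Spi1 were higher in DKO than in Daxx-WT libraries, and of 3 DKO sites in Daxx, 2 were lower and 1 higher. The Daxx-KO table listed 2 sites in Daxx and 3 in Spi1, all lower in Daxx-KO libraries. Of 10 stem and progenitor marker genes, 7 had a peak within 1000 bp of a start site in the Daxx-WT KLS list, 8 in the Daxx-KO and 5 in the DKO list, and Ly6a and Slamf1 had none in any of the 3. Of 10 genes of mature lineages, 2 had one in the Daxx-WT list, 2 in the Daxx-KO list and 0 in the DKO list. Mean reads per 600 bp window differed between libraries, from 4.21 to 16.0 before scaling. After the authors' scaling it was 9.03, 3.98 and 5.27 in the Daxx-KO KLS libraries, against 7.60 and 8.61 for Daxx-WT, and in the table of the double knockout 10.6 and 14.95 for DKO against 7.39 and 8.19 for Daxx-WT. This mean was below both Daxx-WT values in 2 of the 3 Daxx-KO libraries and above them in both DKO libraries, opposite in direction to the members' values. With reads scaled to it, all 295 members kept both directions, with larger differences. Such scaling favours that outcome, so it is no test of the members.

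Windows of 200 bp are printed to show the DNA of leading members and of Pu.1 motifs at members. The first pair are the only members, among the 12 with the largest change in both tables and those at listed blood genes, with a Pu.1 motif near the middle of the site, in a window reaching 100 bp to each side. The motif, in capitals, is GAGGAAGT, which reads ACTTCCTC when it lies on the other strand. Sequences are the plus strand of GRCm38.p6, the RefSeq assembly of the mm10 build. In the Tlr3 window the motif (chr8:45409668-45409675) lies outside the stretch shared with the DKO lower site, whereas in the Notch1 window (chr2:26513457-26513464) it lies inside.
Tlr3, chr8:45409550-45409749: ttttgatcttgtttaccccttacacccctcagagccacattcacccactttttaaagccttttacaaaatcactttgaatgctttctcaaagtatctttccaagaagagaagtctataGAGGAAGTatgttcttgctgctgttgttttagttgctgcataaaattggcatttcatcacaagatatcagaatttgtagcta
Notch1, chr2:26513350-26513549: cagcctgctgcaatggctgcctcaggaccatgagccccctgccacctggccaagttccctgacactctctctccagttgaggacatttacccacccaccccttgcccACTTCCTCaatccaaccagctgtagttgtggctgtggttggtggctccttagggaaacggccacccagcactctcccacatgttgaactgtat
The remaining windows were chosen after the values had been seen. They are centred on the highest KLS peak summit, or for Ntm and Fggy, which held no such summit, on the site's centre. They lie at the leading members whose overlap covered at least 50% of the shorter site. Shown are the Fbp2 member, whose window holds no exact copy of the motif, and the 5 highest-ranked members with a copy inside the shared stretch. Only exact matches were counted, so the Fbp2 window does not show that this member lacks a Pu.1 site.
Fbp2, chr13:62859317-62859516: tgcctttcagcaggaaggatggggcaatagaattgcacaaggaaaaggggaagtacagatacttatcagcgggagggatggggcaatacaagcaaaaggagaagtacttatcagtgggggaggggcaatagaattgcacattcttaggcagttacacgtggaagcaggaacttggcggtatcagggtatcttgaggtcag
Ntm, chr9:29648025-29648224: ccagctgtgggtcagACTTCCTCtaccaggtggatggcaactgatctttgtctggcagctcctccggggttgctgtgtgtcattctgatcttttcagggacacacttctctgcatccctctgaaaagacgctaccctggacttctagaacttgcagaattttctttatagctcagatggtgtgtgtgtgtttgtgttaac
Pik3r6, chr11:68498722-68498921: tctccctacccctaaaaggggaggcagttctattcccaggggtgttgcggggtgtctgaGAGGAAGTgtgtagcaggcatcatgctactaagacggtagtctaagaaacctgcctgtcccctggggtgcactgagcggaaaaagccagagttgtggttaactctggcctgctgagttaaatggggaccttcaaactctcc
Chchd3, chr6:32717958-32718157: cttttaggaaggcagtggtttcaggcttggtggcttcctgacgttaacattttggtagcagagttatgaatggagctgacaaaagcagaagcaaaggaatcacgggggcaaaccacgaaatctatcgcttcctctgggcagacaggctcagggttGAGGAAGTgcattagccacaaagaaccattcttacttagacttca
Fggy, chr4:95846425-95846624: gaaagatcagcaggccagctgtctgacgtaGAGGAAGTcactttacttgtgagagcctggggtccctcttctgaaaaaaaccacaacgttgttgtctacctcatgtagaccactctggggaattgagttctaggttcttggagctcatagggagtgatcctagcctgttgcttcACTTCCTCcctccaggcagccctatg
St3gal5, chr6:72051825-72052024: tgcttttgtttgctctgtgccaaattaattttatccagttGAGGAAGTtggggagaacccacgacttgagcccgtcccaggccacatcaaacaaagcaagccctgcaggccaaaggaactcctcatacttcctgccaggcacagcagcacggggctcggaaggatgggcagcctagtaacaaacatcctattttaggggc
The Fggy window held 2 copies, one on each strand. In 28 of the 235 members with the larger overlap a copy lay inside the stretch that both tables covered. That copy was within 100 bp of the summit, or of the centre where the site held no summit. No such count was made for shared stretches of other sites. Counted in these windows without regard to the shared stretch, 13.2% of the 235 held the motif. The share was 12.7% over the summits of Daxx-WT KLS peaks at a DKO lower site.

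In the Daxx-KO table the members' median scaled read count was 66.6 and 67.6 under Daxx-WT and 101.3 (replicate 1), 137 (replicate 2) and 113 (replicate 3) under Daxx-KO. On the log2(scaled reads + 1) scale the median difference between Daxx-KO and Daxx-WT means was 0.76 (range 0.42 to 1.799), a ratio of 1.69. With reads scaled to the mean per window it was 1.37, a ratio of 2.58. The median over all 3308 Daxx-KO higher sites was 1.00, but among sites in a Daxx-WT KLS peak the medians were 0.74 for members and 0.74 for all Daxx-KO higher sites. In 36 members the difference was at least 1. The 2 groups of libraries did not overlap in 284 members (96.3%), against 98.2% of all Daxx-KO higher sites, a share near the background. In the other 11 members, Daxx-KO replicate 1 was no higher than a Daxx-WT library, and without that replicate none of the 295 overlapped. Replicate 2, which had the lowest mean reads per window, was the highest of the 3 Daxx-KO libraries in 216 members, and its part in the result was not tested.

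In the DKO table the same members had a median of 91.4 and 88.8 scaled reads under Daxx-WT and of 41.4 and 44.0 in DKO cells. The median log2 difference was -1.01 (range -2.31 to -0.59), so the DKO level was 49.5% of the Daxx-WT level, or 31.2% with reads scaled to the mean per window (log2 difference -1.68). DKO and Daxx-WT libraries did not overlap in any of the 295 members, as in 99.9% of all DKO lower sites. The median over all 14188 DKO lower sites was -1.04, and over the 11559 of them that met a KLS peak it was -1.003. The members' lower values in DKO cells were thus of the size common to that table. The plot of members by library shows both tables.

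**Figure D1:**
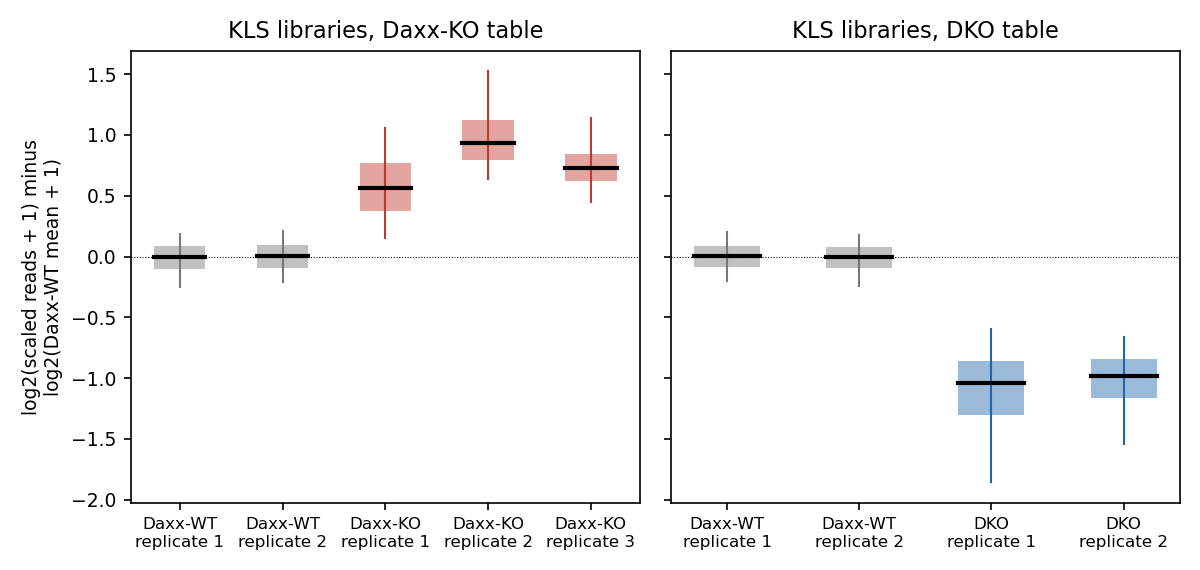
Scaled reads at the 295 members in each KLS library, as log2(scaled reads + 1) minus the same for the Daxx-WT mean of that table. Black lines are medians over members, boxes the middle 50% and thin lines the 5th to 95th percentile. The Daxx-KO medians are 0.56, 0.93 and 0.73, the DKO medians -1.04 and -0.99, and the Daxx-WT medians lie at 0.

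Meeting a DKO lower site was common among strong KLS sites. Of all 33325 Daxx-WT KLS peaks, 29.6% met a DKO lower site and 2.98% a DKO higher site. Of the 836 Daxx-KO higher sites in such a peak, 215 were members, a share of 25.7%, and 9.93% met a DKO higher site. With the Daxx-KO peak list in place of the Daxx-WT list, 13.2% of the Daxx-KO higher sites in a peak were members, against 24.3% of all Daxx-KO peaks at a DKO lower site. A Daxx-KO higher site was met by 2.54% of Daxx-WT peaks. Of the 1103 Daxx-KO lower sites in such a peak, 40.1% met a DKO lower site. Read against these shares, a Daxx-KO higher site in a peak met a DKO lower site no more often than any peak did. The 2 tables shared both Daxx-WT libraries, so low Daxx-WT reads at a site favour a higher call in both. This works against meeting a DKO lower site, so the comparison of 25.7% with 29.6% is tilted against an excess. For that reason no test of the overlap is given, and whether members exceed what the shared libraries allow was not tested.

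The 2 sites that make a member did not always cover the same DNA. Members were 600 to 2050 bp long (median 800 bp) and the DKO lower sites they met 600 to 3350 bp (median 950 bp), with a shared stretch of 50 to 1300 bp (median 550 bp). The shared stretch covered at least 50% of the shorter site in 235 members. Of the 226 members that held the summit of a Daxx-KO KLS peak, 198 had one inside the shared stretch. Daxx-WT reads per kb, which would be alike if both sites covered the same chromatin, were within 1.5-fold of each other in 216 members, and were higher over the DKO site by more than that in 61. In the 235 members with the larger overlap the median log2 differences were 0.75 and -1.01, almost as in all 295. In all, 3 members, nearest to Iscu, Fbxw7 and Usp2, also met a DKO higher site.

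The partial overlaps gathered at the head of the ranking. Ranked by the smaller of the 2 log2 differences, 12 members led, nearest to Iscu, Dnajb6, Acoxl, Ror1, Fbp2, Mrps6, Nme7, Akap6, 1600015I10Rik, Irs2, Foxo1 and Kctd1, and only those at Acoxl and Fbp2 shared at least 50% of the shorter site. At the first, in Iscu (chr5:113777551-113778400), which encodes the scaffold protein of iron-sulphur cluster assembly, the shared stretch was 100 bp. There the Daxx-KO table gave 69.0, 65.6 and 38.6 scaled reads in Daxx-KO libraries, against 11.9 and 21.8 for Daxx-WT, while the DKO table gave 44.5 and 75.9 in DKO and 162 and 192 in Daxx-WT libraries. The Daxx-WT reads of the 2 tables thus differed several-fold, and the 2 differences belong to neighbouring chromatin. The member nearest to Foxo1 (chr3:52567901-52568550) shared 50 bp with its DKO site, and that nearest to Dnajb6, a heat-shock co-chaperone, shared 100 bp.

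The largest opposite changes over largely shared DNA were next to Fbp2 and in Acoxl. The Fbp2 member (chr13:62858701-62860150) lay 279 bp from a start site of Fbp2, which encodes the muscle form of the gluconeogenic enzyme fructose-1,6-bisphosphatase, in intergenic sequence. Its DKO site, of 650 bp, lay wholly within the 1450 bp of the member. The Daxx-KO libraries had 160.3, 253 and 226 scaled reads there and the Daxx-WT libraries 67.5 and 58.5, a log2 difference of 1.74. Over the 650 bp of the DKO site, the DKO libraries had 20.1 and 14.99 scaled reads and the Daxx-WT libraries 47.0 and 37.3, a log2 difference of -1.22. No library of one genotype reached the range of the other in either table. The Fbp2 member was in the Daxx-KO KLS list and in neither the Daxx-WT nor the DKO KLS list, and it was in all 4 CMP and GMP lists. The locus had been picked out by the study from these samples, so its values are no independent evidence.

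The Acoxl member (chr2:128008201-128009050) lay in an intron of this acyl-CoA oxidase-like gene. The Daxx-KO libraries had 86.8, 201 and 98.8 scaled reads and the Daxx-WT libraries 39.2 and 58.5 (log2 difference 1.38). In the DKO table the DKO libraries had 12.7 and 22.5 and the Daxx-WT libraries 36.4 and 66.9 (log2 difference -1.501). Replicate 2 stood above the other Daxx-KO libraries, and the groups did not overlap in either table. Other leading members with the larger overlap, named after their values had been seen, lay near Stc1 (rank 13), Slc2a8 (rank 17) and Igf2bp3 (rank 25), with log2 differences of 1.09 and -1.14, 1.06 and -1.53, and 1.03 and -1.15.

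A total of 16 members lay nearest to, or inside, 14 of 260 genes on 10 lists of blood and chromatin genes. Lymphoid genes held 5 members (1.69%, against 1.15% of all Daxx-KO higher sites), namely Blk, Flt3, Dntt, Notch1 and Foxo1. Myeloid receptors held 4 (1.36% against 0.393%), 2 each at Il1r1 and Cxcr4. Stem cell genes held 2 (0.678% against 0.484%), Erg and Mecom, and interferon-stimulated genes and sensors held 2 (0.678% against 0.151%), Tlr3 and Irf1. Myeloid transcription factors held 1 (Bach2), cytokines and chemokines 1 (Csf2), and the loci discussed by the study 1 (Fbp2). Bach2 was on the myeloid list although it favours lymphoid over myeloid fate. No member lay at a granule or myeloid effector gene, an erythroid or megakaryocyte gene, or a gene of the Daxx and H3K9 silencing list. These counts are too small to set the members apart from the other Daxx-KO higher sites, and a nearest gene is a matter of position that need not be the gene a site acts on.

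Among the lymphoid genes, the clearest pair of values came from Blk, a Src-family kinase of B cells. Its member (chr14:63377101-63378000), in an intron 683 bp from a start site, had 99.1, 216 and 109 scaled reads after Daxx loss, against 61.1 and 75.7 in Daxx-WT libraries, and 28.6 and 37.5 in DKO against 64.8 and 72.4 in the Daxx-WT libraries of that table. The groups did not overlap, and 800 bp were shared. The member 6425 bp from Dntt (chr19:41021851-41022850), the terminal transferase that adds bases at rearranging antigen-receptor genes, had 173, 307 and 196 in Daxx-KO libraries, against 121 and 132 for Daxx-WT, then 61.5 and 77.8 in DKO against 118 and 135. It was the member with the longest shared stretch of those at listed genes, 900 bp.

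Notch1, a receptor that directs T-cell fate, held a member in an intron 2663 bp from a start site (chr2:26512901-26514000). Here the Daxx-KO libraries had 230.5, 388 and 308 scaled reads and the Daxx-WT libraries 213 and 177, so that replicate 1 was just above the higher Daxx-WT library. The DKO libraries had 99.7 and 73.1 against 172 and 146. In an intron of Flt3, the cytokine receptor of early lymphoid and multipotent progenitors, the member (chr5:147339101-147339700) had 83.5, 52.5 and 52.7 in Daxx-KO libraries, against 32.8 and 24.1 for Daxx-WT, and 48.8 and 48.7 in DKO against 101.2 and 86.7. In contrast to most members, replicate 1 was the highest Daxx-KO library at Flt3.

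Il1r1, the receptor through which interleukin-1 drives myeloid output, held 2 members in its introns. The first (chr1:40262701-40263650) had 128, 212 and 122 scaled reads in Daxx-KO libraries, against 86.7 and 82.5 for Daxx-WT, and 28.6 and 42.2 in DKO against 87.0 and 80.1. The second (chr1:40271151-40271850) had 106, 172 and 126 against 81.2 and 73.4, and 75.3 and 55.3 against 140.2 and 134. At both sites every Daxx-KO library was above, and every DKO library below, both Daxx-WT libraries. Cxcr4, the receptor for the chemokine that holds stem cells in the marrow, was the nearest gene of 2 intergenic members, 112408 and 240658 bp away. The nearer shared 100 bp with its DKO site. The farther (chr1:128832951-128834000) shared 750 bp and had 145, 262 and 139 in Daxx-KO libraries, against 93.1 and 109 for Daxx-WT, and 63.6 and 85.2 in DKO against 126 and 135.

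Bach2, a repressor that favours lymphoid over myeloid fate, held a member in an intron 837 bp from a start site (chr4:32248601-32249300), with 77.9, 107 and 89.4 scaled reads in Daxx-KO libraries, against 48.4 and 50.4 for Daxx-WT, and 39.2 and 46.8 in DKO against 83.4 and 99.8. The member 31517 bp from Csf2, which encodes GM-CSF (chr11:54217401-54218150), had 88.0, 89.2 and 73.4 in Daxx-KO libraries, against 46.5 and 51.6 for Daxx-WT, and 30.8 and 34.7 in DKO against 57.7 and 63.6. In an intron of Mecom, a transcription factor of stem cell maintenance, the member (chr3:30091601-30092450) had 82.4, 77.9 and 82.8 in Daxx-KO libraries, against 55.6 and 49.3 for Daxx-WT, and 24.4 and 18.7 in DKO against 56.8 and 46.1. The Daxx-KO libraries were closest to each other at Mecom among these genes. The Erg member, in an intron of another stem cell factor, shared 300 bp, and those at Tlr3, a sensor of double-stranded RNA, and Irf1 shared 100 bp each. Mef2c, a transcription factor of lymphoid and myeloid progenitors, was the only gene nearest to 3 members, 391884, 1613 and 16053 bp from a start site. Their log2 differences were 1.09, 0.82 and 0.71 in the Daxx-KO table and -0.84, -1.10 and -1.12 in the DKO table.

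**Figure D2:**
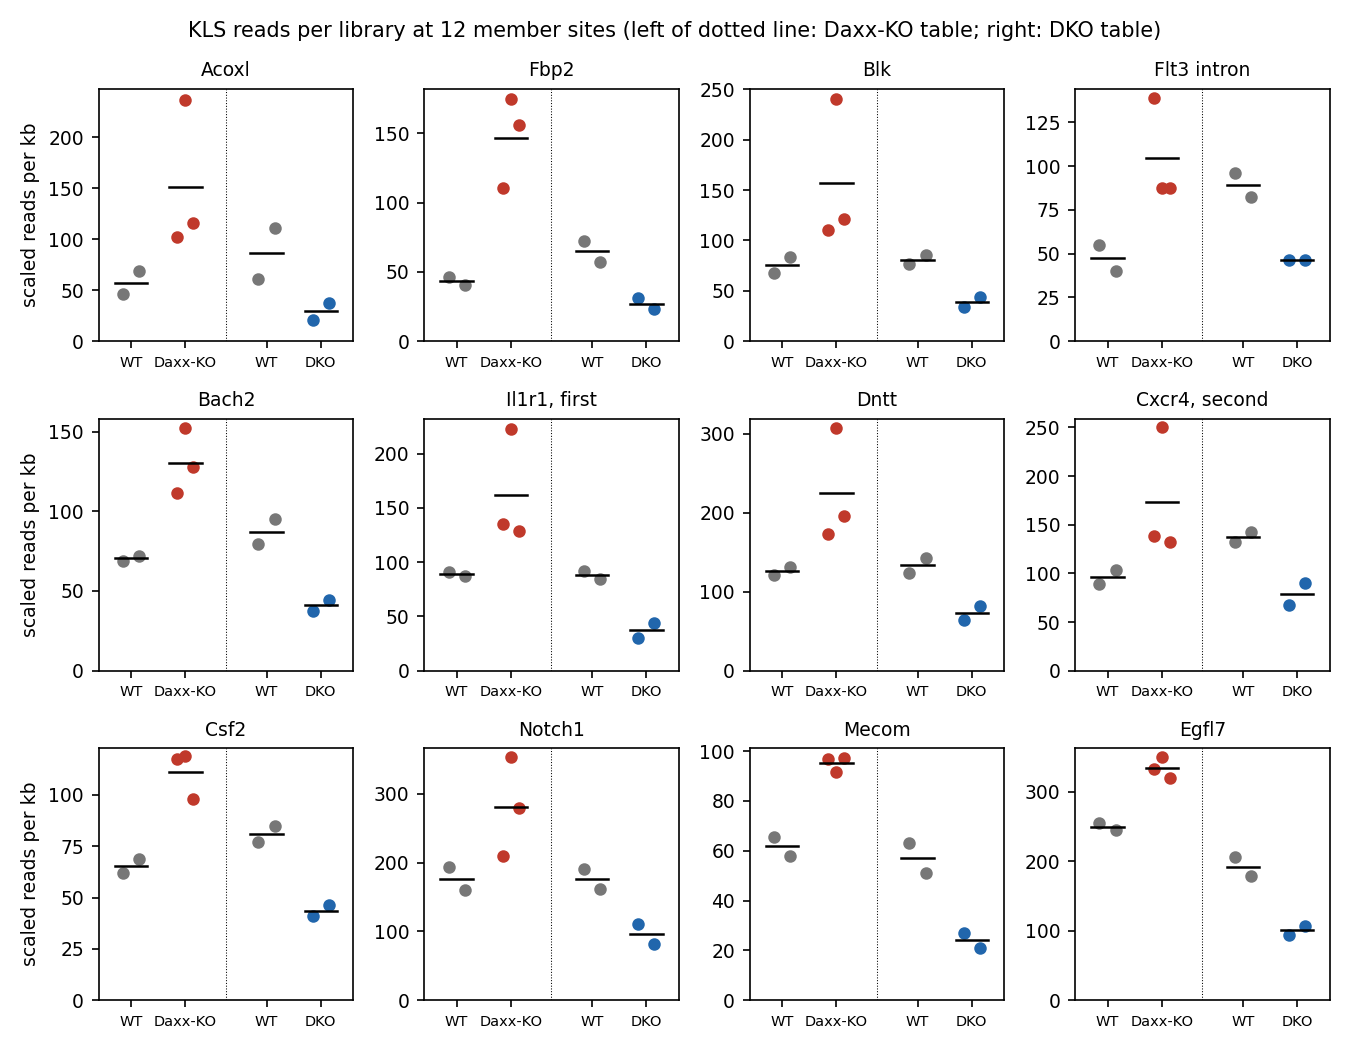
Scaled reads per kb of site in every KLS library at 12 members that shared at least 50% of the shorter site, at leading or listed genes and, for Egfl7, from the foot of the ranking. Points are libraries (grey Daxx-WT, red Daxx-KO, blue DKO), lines group means, and a dotted line parts the 2 tables, whose sites differ in extent. In every panel the red points lie above the grey points of the left side and the blue points below those of the right side.

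At the foot of the ranking the members were nearest to Ssh3, Egfl7 and Uaca. The Uaca member (chr9:60998951-60999550) had 277, 425 and 343 scaled reads in Daxx-KO libraries, against 255 and 266 for Daxx-WT, and 214 and 139.6 in DKO against 269 and 279, so that the groups stayed apart by a small margin. Egfl7 had log2 differences of 0.42 and -0.93, and Ssh3 0.46 and -0.79. Just outside the rule, Daxx-KO higher sites nearest to Adssl1, Rnd3 and Ndufaf6 began 1 bp from a DKO lower site without sharing a base. Their log2 differences in the Daxx-KO table were 0.55, 0.69 and 1.08, and those of the abutting DKO sites -0.82, -0.93 and -0.86, much like those of members.

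Most members were distal. Of 295, 253 (85.8%) lay more than 1000 bp from every annotated start site, with a median distance of 8503 bp, against 81.9% of all Daxx-KO higher sites. An intron without exon overlap held 39.0% of members, an exon of a protein-coding gene 12.5%, and 48.5% had no protein-coding host gene. Median GC content was 48.1% in members and 48.0% in all Daxx-KO higher sites, and the share of bases masked as repeats 12.4% and 14.9%. Members were spread over all 19 autosomes, most on chromosome 1 (25), with 1 on chromosome X, near Gm4779. They were scattered, with 287 nearest genes and only 8 members within 50000 bp of another. The protein-coding start site that names a member was within 10 kb in 115 members and over 100 kb away in 45.

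In the KLS peak lists, which the authors called on each group, 279 members (94.6%) were in the Daxx-KO list, 215 (72.9%) in the Daxx-WT list and 41 (13.9%) in the DKO list. Of these, 172 were in both the Daxx-WT and the Daxx-KO list and not in the DKO list, which was also shorter (22156 peaks against 33325 for Daxx-WT). The same held for 410 of the 836 Daxx-KO higher sites in a Daxx-WT peak (49.0%), against 80.0% of the 215 members there, a contrast close to the rule itself. Peaks at members were thus mostly present in Daxx-WT cells and taller in Daxx-KO cells. Among 213 members with a peak in both lists, the median fold enrichment of the highest peak was 5.61 in the Daxx-WT and 7.84 in the Daxx-KO list, and higher in Daxx-KO in 96.2%. The same was true of 88.6% of all 30640 Daxx-WT peaks with a Daxx-KO peak, so the taller Daxx-KO peaks were not particular to members. These lists rest on the libraries that chose the members.

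CMPs and GMPs came from libraries that the rule did not use. In CMPs, 263 members (89.2%) were in the Daxx-WT and 256 (86.8%) in the Daxx-KO list. In GMPs the counts were lower, 226 (76.6%) and 210 (71.2%). All 4 lists held 194 members (65.8%), 26 were in both CMP lists and no GMP list, and 21 (7.12%) were in none, among them those at Iscu, Nme7, Fbxw7, Ccr7 and Csf2. A Daxx-WT CMP peak without a Daxx-WT GMP peak was found at 42 members, and the reverse at 5. LT-HSCs without a time label held 256 members (86.8%) in the Daxx-WT and 270 (91.5%) in the Daxx-KO list. The members were therefore mostly sites already listed in wild-type stem cells and in both progenitors, and 30 were in a Daxx-WT CMP or GMP list and not in the Daxx-WT LT-HSC list.

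Among listed genes, the members at Fbp2, Bach2, Mecom, Notch1, Tlr3 and Flt3, and both at Cxcr4, were in all 4 CMP and GMP lists, as was the intergenic one nearest to Foxo1. The members at Dntt and the first at Il1r1 were in both CMP lists and neither GMP list. The second Il1r1 member and that in Erg were in both CMP lists and in the Daxx-WT but not the Daxx-KO GMP list. The Blk member was in both CMP lists and in the Daxx-KO but not the Daxx-WT GMP list, and the Irf1 member in all but the Daxx-KO CMP list.

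Most of these peaks were also in the Daxx-KO lists. Of members with a Daxx-WT CMP peak, 247 (93.9%) had a Daxx-KO CMP peak, against 87.8% of all Daxx-KO higher sites and 71.5% of all 66070 Daxx-WT CMP peaks. In GMPs it was 201 members (88.9%) against 83.6% of Daxx-KO higher sites and 72.4% of all peaks. Among sites in a Daxx-WT KLS peak the shares were 97.0% of members and 97.3% of all Daxx-KO higher sites in CMPs, and 91.5% and 93.1% in GMPs, so members did not stand apart. The Daxx-KO lists were shorter in both populations, with 50590 and 49677 peaks. In LT-HSCs without a time label the shares were 98.8% of members and 93.2% of all peaks. The peaks were not matched on height here, and the lists without a time label carry no height, so its part in these shares was not tested.

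Members were more often in every list but that of DKO KLS cells than the other Daxx-KO higher sites were. The Daxx-WT CMP list held 89.2% of members, 48.0% of sites higher in both knockouts and 54.9% of those at no DKO site, and the Daxx-WT GMP list 76.6%, 45.1% and 42.7%. The level in Daxx-WT KLS cells moved with this, since members had a median of 82.1 Daxx-WT scaled reads per kb, against 34.0 and 38.9 in the other classes. Among the sites in a Daxx-WT KLS peak these medians were 96.5, 88.9 and 93.0. There members were no longer the class most often in the CMP and GMP lists. The Daxx-WT CMP list then held 93.5% of 215 members, 95.2% of 83 sites higher in both and 94.6% of 538 sites at no DKO site. In the Daxx-WT GMP list the shares were 81.9%, 91.6% and 82.3%, so sites higher in both knockouts were in it more often than members. In the Daxx-KO GMP list they were 78.6%, 86.7% and 79.9%. In LT-HSCs without a time label the shares were 95.3%, 85.5% and 94.8% (Daxx-WT) and 98.1%, 92.8% and 98.0% (Daxx-KO). Members were there above the sites higher in both knockouts and nearly level with those at no DKO site. At 3 d.p.i. the Daxx-WT shares were 76.7%, 69.9% and 76.4%, and the Daxx-KO shares 84.2%, 83.1% and 84.4%.

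**Figure D3:**
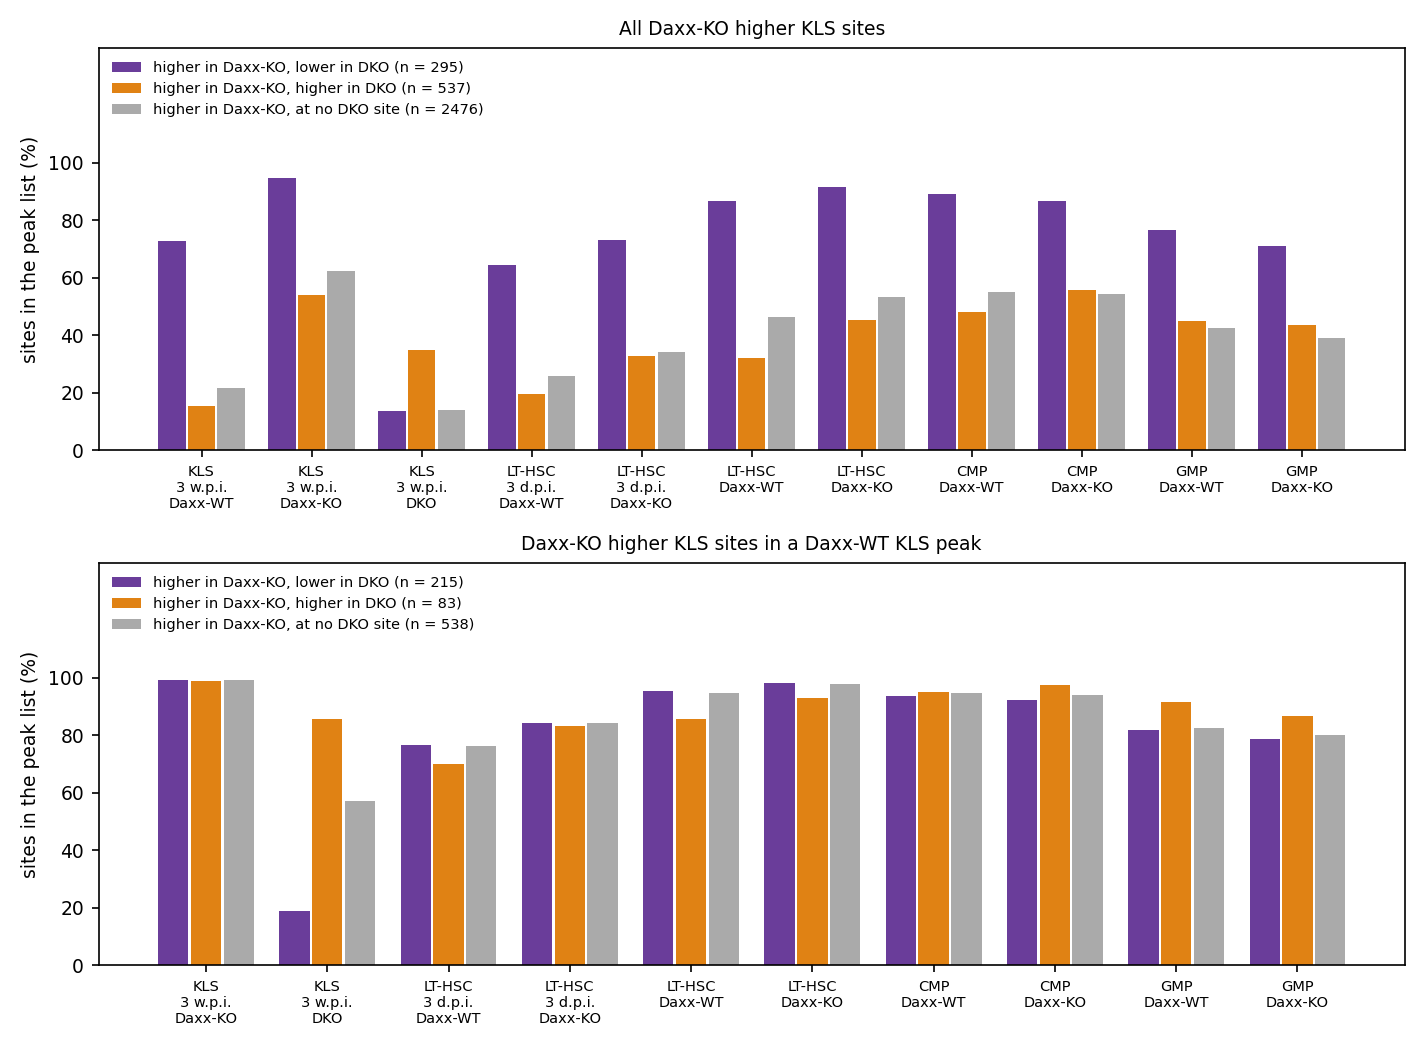
Share of Daxx-KO higher KLS sites that overlap a peak of each list, for members (purple), sites also higher in DKO (orange) and sites at no DKO site (grey). In the upper panel, over all sites, purple bars are the tallest in all lists but that of DKO KLS cells; in the lower panel, over sites in a Daxx-WT KLS peak, the classes are close in the CMP lists and purple is the lowest in the GMP lists.

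LT-HSCs at 3 d.p.i. gave a second set of libraries for the Daxx contrast. Of the members, 23 met a listed LT-HSC site, 19 of them higher and 4 lower in Daxx-KO than in Daxx-WT LT-HSCs. A listed higher site was met by 6.44% of members and by 6.92% of all Daxx-KO higher KLS sites, and a listed lower site by 1.6% of the latter. Of the 258 other Daxx-KO higher sites that met a listed LT-HSC site, 81.4% met a higher one, against 82.6% of the 23 members, whereas only 29.1% of all listed LT-HSC sites were higher. The direction was thus mostly shared, to a like degree in members and other Daxx-KO higher sites. For the remaining 272 members the LT-HSC table gives no value.

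With limma, 0 of the 23 sites passed an adjusted p of 0.05 after Benjamini-Hochberg adjustment over all 413247 windows, as did 0 of the 11927 listed sites (0%), and the smallest adjusted p among members was 0.301. Since no listed site passed with 3 against 2 libraries, the 0 does not show that the genotypes were alike at members. With reads scaled to the mean per window 15 of the listed sites passed, none of them at a member. At an unadjusted p below 0.05 there were 20 of 23, against 96% of the listed sites, which had been selected for a difference. The largest difference among sites higher in Daxx-KO was at the intergenic member nearest to Gm9268 (LT-HSC site chr7:42979301-42981250), with 319, 330.2 and 259 scaled reads in Daxx-KO LT-HSCs, against 112 and 94.7 for Daxx-WT, a log2 difference of 1.54 (SE 0.24). Next were the sites nearest to Ccr7, a chemokine receptor of lymphocytes and dendritic cells (1.25, SE 0.25), Acoxl (1.23, SE 0.23) and Mef2c (1.23, SE 0.32). The last is at the member 391884 bp from Mef2c. At Acoxl the Daxx-KO LT-HSC libraries had 59.6, 45.8 and 59.1 and the Daxx-WT libraries 23.7 and 21.6, but this LT-HSC site met the KLS member only at its edge.

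The Fbp2 site was also higher in LT-HSCs, with 269, 262 and 222 scaled reads in Daxx-KO libraries, against 153 and 184 for Daxx-WT (log2 difference 0.57, SE 0.23). At Ccser1, the third largest difference in size, the direction was opposite, with 20.2, 10.5 and 17.9 in Daxx-KO LT-HSCs, against 37.2 and 39.4 for Daxx-WT (log2 difference -1.24, SE 0.30). In KLS cells that member (chr6:61292501-61293650) had 178, 167 and 141 in Daxx-KO libraries, against 89.4 and 78.0 for Daxx-WT. In all 23 except the 3 nearest to Nfe2l3, Msrb3 and Uaca the unadjusted p was below 0.05.

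**Figure D4:**
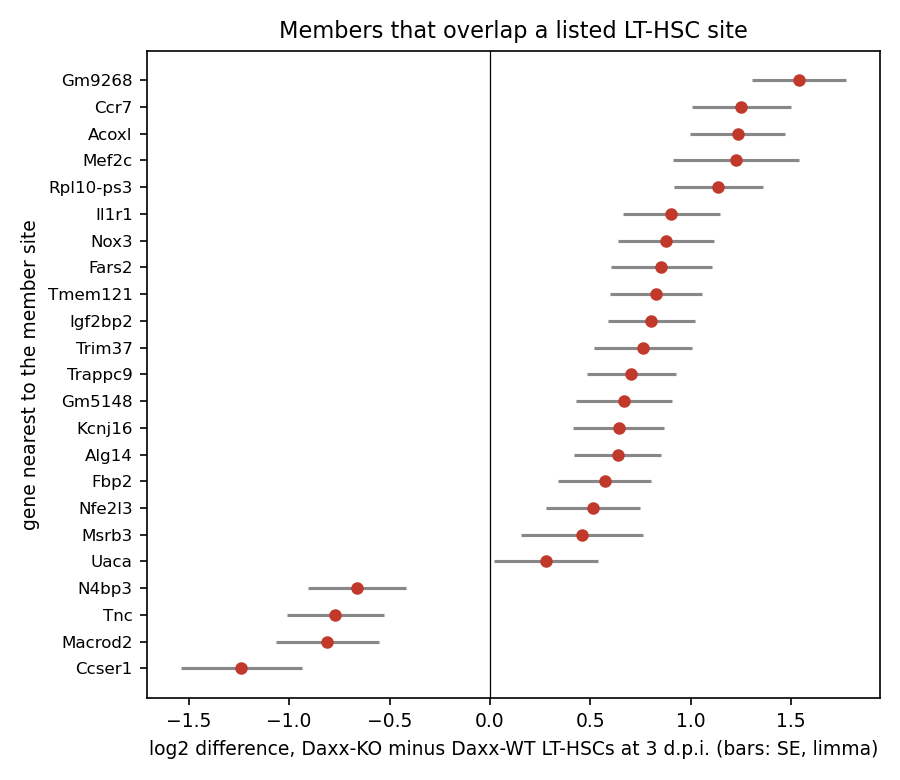
Log2 difference between Daxx-KO (3 libraries) and Daxx-WT (2 libraries) LT-HSCs at 3 d.p.i. at the 23 members that met a listed LT-HSC site, by nearest gene, with the SE from limma. The points of 19 members lie to the right of 0, and those of N4bp3, Tnc, Macrod2 and Ccser1 to the left.

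In the larger LT-HSC 3 d.p.i. peak lists, 190 members (64.4%) had a Daxx-WT and 216 (73.2%) a Daxx-KO peak. The Daxx-KO list alone held 35 of them and the Daxx-WT list alone 9. Among 181 members in both lists, fold enrichment was higher in Daxx-KO in 79.0% (median 6.92 against 6.11), and in 74.8% of all 33743 Daxx-WT peaks with a Daxx-KO peak. These are pooled calls, with 1 list a group, so no test is given.

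Sequence motifs were counted on both strands in 200 bp windows. Around the site centre, the Pu.1 motif was found in 20 members (6.78%) and in 4.75% of all Daxx-KO higher sites. Around the highest KLS summit inside the site, or the centre where there was none, it was found in 34 members (11.5%), in 7.35% of all Daxx-KO higher sites and in 4.47% of sites higher in both knockouts. Among sites in a Daxx-WT KLS peak the shares were 12.6%, 8.85% and 8.43%. Some of these sites, among them the members nearest to Nme7 and Akap6, held no summit, so their window stayed at the centre. The share was 7.85% over the summits of all 44694 Daxx-KO KLS peaks and 12.7% over those of the 9853 Daxx-WT peaks at a DKO lower site. The members' share was thus close to that of Daxx-WT peaks with lower DKO reads in general. No motif match shows that the factor bound there.

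The composite ETS-IRF motif, which PU.1 can bind with an interferon regulatory factor, was in 17 member windows around the summit (5.76%), in 3.48% of all Daxx-KO higher sites and in 2.84% of all Daxx-KO peaks. The IRF motif was in 5.08%, 4.17% and 4.03%. The RUNX motif TGTGGTT was in 15.9% of members, 16.1% of all Daxx-KO higher sites and 10.9% of all peaks. The GATA motif AGATAA was in 9.15%, 7.50% and 7.01%, the AP-1 motif TGANTCA in 7.46%, 8.40% and 7.77%, and the C/EBP motif TTGCNNAA in 10.2%, 8.07% and 8.11%. The CTCF motif was in 1 member window (0.339%), that in the Flt3 intron, in 0.937% of all Daxx-KO higher sites and in 5.40% of all peaks. Around the site centre, ETS-IRF was in 8 members (2.71%) and in 2.93% of all Daxx-KO higher sites. IRF was there in 3.05% and 3.36%, so the higher shares of members around the summit rested on the window. At the summits of Daxx-WT peaks at a DKO lower site, ETS-IRF was in 3.53% and IRF in 4.64%. Some of these motifs share letters, so that 1 stretch can count for both IRF and ETS-IRF.

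**Figure D5:**
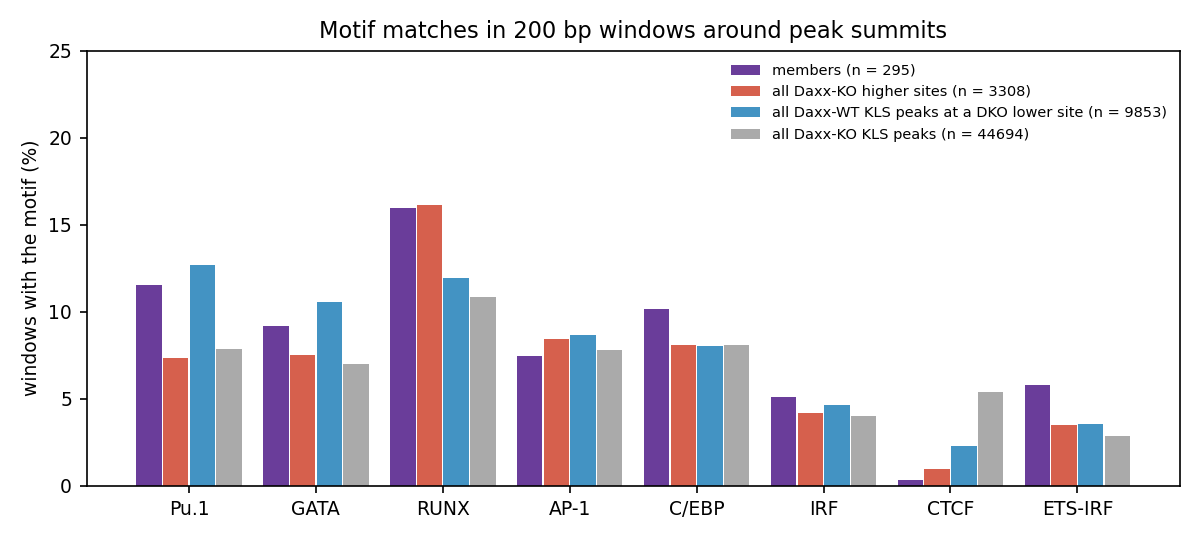
Share of 200 bp windows that held each motif, on either strand, around the highest KLS summit of members (purple) and of all Daxx-KO higher sites (red), and around the summits of Daxx-WT KLS peaks at a DKO lower site (blue) and of all Daxx-KO KLS peaks (grey). The Pu.1 motif is in 11.5%, 7.35%, 12.7% and 7.85% of them, and CTCF in 0.339% of member windows. Members and Daxx-KO higher sites without a summit inside are shown by the window around their centre.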

How the data were processed

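ATAC-seq libraries of KLS cells, LT-HSCs, CMPs and GMPs were made by the authors from sorted cells, 24 in 11 groups. Per the labels, the build was mm10 and the processing notes name CASAVA 1.8.4, cutadapt 1.13, STAR 2.5.3 and bedtools, with no role given. Per the file headers, the 3 site tables were made with diffReps 1.55.6 (600 bp windows, 50 bp steps, 100 bp fragments, negative binomial test, p cutoff 0.0001). Their library values are counts that the authors divided by a constant per library, called scaled reads here, and the deposited mean signal of each group gave the direction. The tables also hold the authors' fold changes, p-values and window statistics, which were not used. Depth is known as mean reads per window only. The 11 peak lists hold 1 pooled call a group, and 5 of them carry a deposited score, and a fold enrichment, which is a ratio to the local background set by the authors. The peak caller is not given in the sources used here.

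Overlaps needed 1 bp. Log2 differences used group means and a pseudocount of 1 scaled read. LT-HSC sites were tested with limma 3.58.1 (R 4.3.3), with Benjamini-Hochberg adjustment over the windows the header gives, after a check on simulated data. These p-values measure the spread between libraries. In the KLS tables no test was run. Start sites and genes came from GENCODE M21 and sequences from RefSeq GRCm38.p6 (pysam 0.24.0), and of the 260 listed genes 258 were in the annotation. Named members were the 12 with the largest smaller change, those at listed genes, at genes nearest to 3 or more members, the 5 with the largest LT-HSC difference, and the last 3. Members and lists were chosen with earlier results of these data known. Alternatives were an overlap of 50%, scaling to mean reads per window, a pseudocount of 0.5, a mean of 10 scaled reads, a peak score of 540, a distance of 2000 bp, other motif windows and leaving out libraries. Tools were Python 3.11.15, numpy 2.4.6, pandas 2.3.3 and matplotlib 3.10.9.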

Additional observations from a re-analysis of the deposited data

Results flagged for a closer look

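The members nearest to 4 genes were higher in KLS cells that had lost Daxx and lower in all 3 Daxx-KO than in both Daxx-WT libraries of LT-HSCs at 3 d.p.i., so that the Daxx contrast ran in opposite directions in the 2 populations. The log2 differences in LT-HSCs were -1.24 at Ccser1, -0.81 at Macrod2, -0.77 at Tnc and -0.66 at N4bp3. Libraries of the 2 genotypes were apart in all 19 higher and all 4 lower LT-HSC sites at members. The listed sites had been selected for a difference, so this separation does not single out the 4. Of the 258 other Daxx-KO higher sites at a listed LT-HSC site, 81.4% met a higher one, against 82.6% of the 23 members. The difference between the populations was not tested, the KLS direction was fixed by how the members were chosen, and population, time after induction and, where the KLS mice carried Mx1Cre, the Cre driver and its inducer cannot be told apart. With reads scaled to the mean per window, all Daxx-KO libraries stayed below both Daxx-WT libraries only at Ccser1. At Macrod2, Tnc and N4bp3 Daxx-KO library 2 was then above both, with 96.7, 85.6 and 320.0 reads on that scale against 84.1, 76.2 and 317 in the higher Daxx-WT library.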

How the results depend on the processing

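All 295 members kept both directions without each KLS library in turn (295 to 295). They also kept them when reads were scaled to the mean per window, where 313 sites met the rule. With an overlap of 50% of the shorter site 235 met it. The members were listed for a difference in these libraries, and the mean per window mostly ran opposite to their values. The kept directions were thus largely fixed in advance and are no evidence of stability. Scaling to the mean per window moved the median log2 differences to 1.37 (Daxx-KO) and -1.68 (DKO), with the same signs, and left 260 members with no overlap between libraries, against 284. Without single libraries these medians ranged from 0.66 to 0.84 and from -1.04 to -0.99. The count of members with the Pu.1 motif rested on the window, with 20 around the centre, 29 within 150 bp and 34 around the highest summit. Counts in peak lists and of distal members stayed within 1.5 times under the overlap of 50%, the score of 540 and the distance of 2000 bp. The count of LT-HSC sites called at members was 0 (0 to 0 without single libraries), which says nothing about stability since limma called no listed site in any setting but the scaling to the mean per window, and the smallest adjusted p ranged from 0.145 to 1. Without single LT-HSC libraries 11 to 21 of the 23 had an unadjusted p below 0.05, lowest without either Daxx-WT library, which leaves 1 Daxx-WT library assumed to vary like the others. With scaling to the mean per window 11 did, all of them higher. The planned count tests (edgeR, DESeq2) were not run: values of up to 20 reads came out whole within 0.15 reads once multiplied by the library's constant, but with constants given to 2 decimals higher values cannot be traced to whole reads. No paired analysis was possible because the LT-HSC libraries of the only test carry mouse numbers and no shared replicate numbers. Few libraries per group limit every comparison.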
